A study of Mus musculus with 10 samples.

Results

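The 39 genes described here encode the enzymes and transporters of glycolysis and a set of genes that cells induce when oxygen is short. They were taken by symbol from a fixed list, and all 39 were found among the 29890 genes of the expression table. All 39 also averaged 1 TPM or more, the level required for testing, which 15276 genes reached. TPM is the estimated number of reads of a transcript divided by its length and scaled to the same total in each library. Levels of different genes can therefore be compared.

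The RNA came from 10 bulk subcutaneous tumors of B2905-M4, a mouse melanoma cell line, implanted into female C57BL/6J mice at an age of 7 to 8 weeks, with 3000000 cells per injection and no immunotherapy. In 5 tumors the implanted cells overexpressed Adamts7, which encodes a secreted protease that cuts matrix proteins, and in 5 they carried the vector alone; each tumor gave 1 library. The promoter of the construct and the number of independently made cell populations are not given in the labels. The design text places the harvest of 2 Adamts7 tumors at day 35, of 3 tumors of each group at day 45 and of 2 vector tumors at day 50, without tying a day to a tumor, so that group and time of growth cannot be told apart.

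Glycolysis splits glucose into pyruvate in the cytosol and yields energy without oxygen; lactate dehydrogenase then turns pyruvate into lactate, which is exported with a proton. When oxygen is low, prolyl hydroxylases no longer mark the hypoxia-inducible factor for destruction. The factor accumulates, binds a short core sequence in DNA and raises transcription of most glycolytic genes, of genes for pH regulation and mitophagy, and of the hydroxylases themselves. Melanomas commonly run glycolysis at a high rate even with oxygen present.

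Adamts7 itself was measured first, since it checks the labels. Adamts7 tumors 1 to 4 held 88.5, 96.0, 78.2 and 74.8 TPM of it, and the tumor labelled Adamts7 5 held 18.2 TPM. Vector tumors 1 to 5 held 6.49, 6.98, 28.3, 8.57 and 27.6 TPM, which places vector tumors 3 and 5 above the tumor labelled Adamts7 5, whose label is taken as given. The melanocyte lineage markers Pmel, Mlana, Tyr, Tyrp1, Dct, Mitf and Sox10 summed to between 12470 and 22967 TPM in the Adamts7 tumors and to between 312 and 16291 TPM in the vector tumors. The lowest sum belonged to vector tumor 3, where Pmel was at 6.13 TPM while Sox10 was still at 269 TPM. Vector tumor 5 followed with Pmel at 274 TPM and Sox10 at 311 TPM. For many genes of the set the log2 fold change is also given below without vector tumors 3 and 5 or without the tumor labelled Adamts7 5. Fold changes of genes outside the set use all tumors.

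The hypoxia-inducible factor recognises the core ACGTG or GCGTG, and stretches of promoter are shown for 3 genes that separated the groups (Pfkl, Gpi1 and Mif), for 2 abundant enzymes of the lower pathway (Ldha and Pgk1) and for 3 hypoxia-induced genes that were highest in the tumor labelled Adamts7 5 (Car9, Bnip3 and Ankrd37). Each is the 160 bases before the transcription start of the first promoter listed for the gene, from RefSeq on build GRCm38.p6, which is older than the build mm39 of the expression table. Sequences run 5′ to 3′ on the gene's own strand, and capitals mark the core on either strand.
Pfkl, chr10:78009808-78009967, minus strand: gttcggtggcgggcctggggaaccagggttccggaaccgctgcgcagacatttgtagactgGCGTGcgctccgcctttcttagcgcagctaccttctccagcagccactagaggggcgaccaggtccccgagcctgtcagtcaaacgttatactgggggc
Gpi1, chr7:34230337-34230496, minus strand: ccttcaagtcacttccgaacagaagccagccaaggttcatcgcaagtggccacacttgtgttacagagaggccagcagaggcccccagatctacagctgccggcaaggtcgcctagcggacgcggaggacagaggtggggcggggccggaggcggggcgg
Mif, chr10:75860278-75860437, minus strand: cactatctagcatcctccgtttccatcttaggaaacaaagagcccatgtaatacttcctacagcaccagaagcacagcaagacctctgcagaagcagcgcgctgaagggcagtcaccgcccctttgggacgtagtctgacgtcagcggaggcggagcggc
Ldha, chr7:46845644-46845803, plus strand: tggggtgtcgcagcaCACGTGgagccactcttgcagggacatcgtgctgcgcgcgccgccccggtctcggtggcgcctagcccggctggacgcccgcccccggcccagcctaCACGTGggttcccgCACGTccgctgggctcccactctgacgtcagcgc
Pgk1, chrX:106186940-106187099, plus strand: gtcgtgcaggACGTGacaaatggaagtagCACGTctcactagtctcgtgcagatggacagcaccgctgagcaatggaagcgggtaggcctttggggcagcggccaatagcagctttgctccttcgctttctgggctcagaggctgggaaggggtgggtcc
Car9, chr4:43506866-43507025, plus strand: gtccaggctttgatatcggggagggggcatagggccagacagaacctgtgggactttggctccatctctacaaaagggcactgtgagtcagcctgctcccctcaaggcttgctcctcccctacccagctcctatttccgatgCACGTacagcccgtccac
Bnip3, chr7:138909507-138909666, minus strand: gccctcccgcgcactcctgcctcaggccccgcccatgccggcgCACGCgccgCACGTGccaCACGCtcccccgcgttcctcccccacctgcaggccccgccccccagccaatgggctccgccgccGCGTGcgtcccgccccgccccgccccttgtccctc
Ankrd37, chr8:45999851-46000010, minus strand: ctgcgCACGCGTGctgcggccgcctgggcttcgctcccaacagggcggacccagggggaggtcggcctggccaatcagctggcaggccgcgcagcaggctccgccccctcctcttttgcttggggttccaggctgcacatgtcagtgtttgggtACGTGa

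The core occurred 5 times in the stretch of Ldha, 5 times in Bnip3, 3 times in Ankrd37, 2 times in Pgk1 and 1 time each in Car9 and Pfkl; the palindrome CACGTG counts as 2 overlapping matches, and the GCGTG matches in Ankrd37 overlap across strands. In Car9 the match began 18 bases before the start. Neither Gpi1 nor Mif had a match in the 250 bases searched. Of the 39 genes 36 had a promoter in the table, and Slc2a3, Bnip3l and Ndrg1 had none. A match within 250 bases before at least 1 listed start was found in 31 of these 36 genes (86.1%), against 60.2% of the 10586 tested genes with a promoter and 41.5% of all 27025 genes. Counted by promoter, 40 of 55 held a match (72.7%), against 54.2% for tested genes and 38.6% for all. With only the first listed promoter of each gene, 25 of the 36 genes had a match (69.4%). That share was 55.8% for tested genes and 38.6% for all genes. The genes without any match were Gpi1, Mif, Tpi1, Eno2 and Car12. These letters were searched on both strands, and a match is a description of the sequence only.

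The 39 genes together made up 2.65% to 3.21% of all transcripts in the Adamts7 tumors. Their share was 3.01%, 2.42% and 2.57% in vector tumors 1, 2 and 4, and 1.03% and 1.09% in vector tumors 3 and 5. Averaged on the log2(TPM + 1) scale, the set lay at 7.12, 7.20, 7.18, 7.05 and 7.53 in Adamts7 tumors 1 to 5 and at 7.20, 6.89, 6.18, 7.19 and 6.30 in vector tumors 1 to 5. The groups overlapped: vector tumors 1 and 4 lay among Adamts7 tumors 1 to 4, vector tumors 3 and 5 lay far below all others, and the tumor labelled Adamts7 5 lay highest. Vector tumor 3 or 5 held the lowest value of 29 of the 39 genes, against 27.8% of all tested genes, and these tumors were the lowest pair for 27 genes, against 19.0% of all tested genes. The tumor labelled Adamts7 5 held the highest value of 18 genes, against 12.9% of all tested genes. The ratio of the highest to the lowest tumor ran from 2.05 for P4ha2 to 46.8 for Car12, with a median of 3.93.

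**Figure D1:**
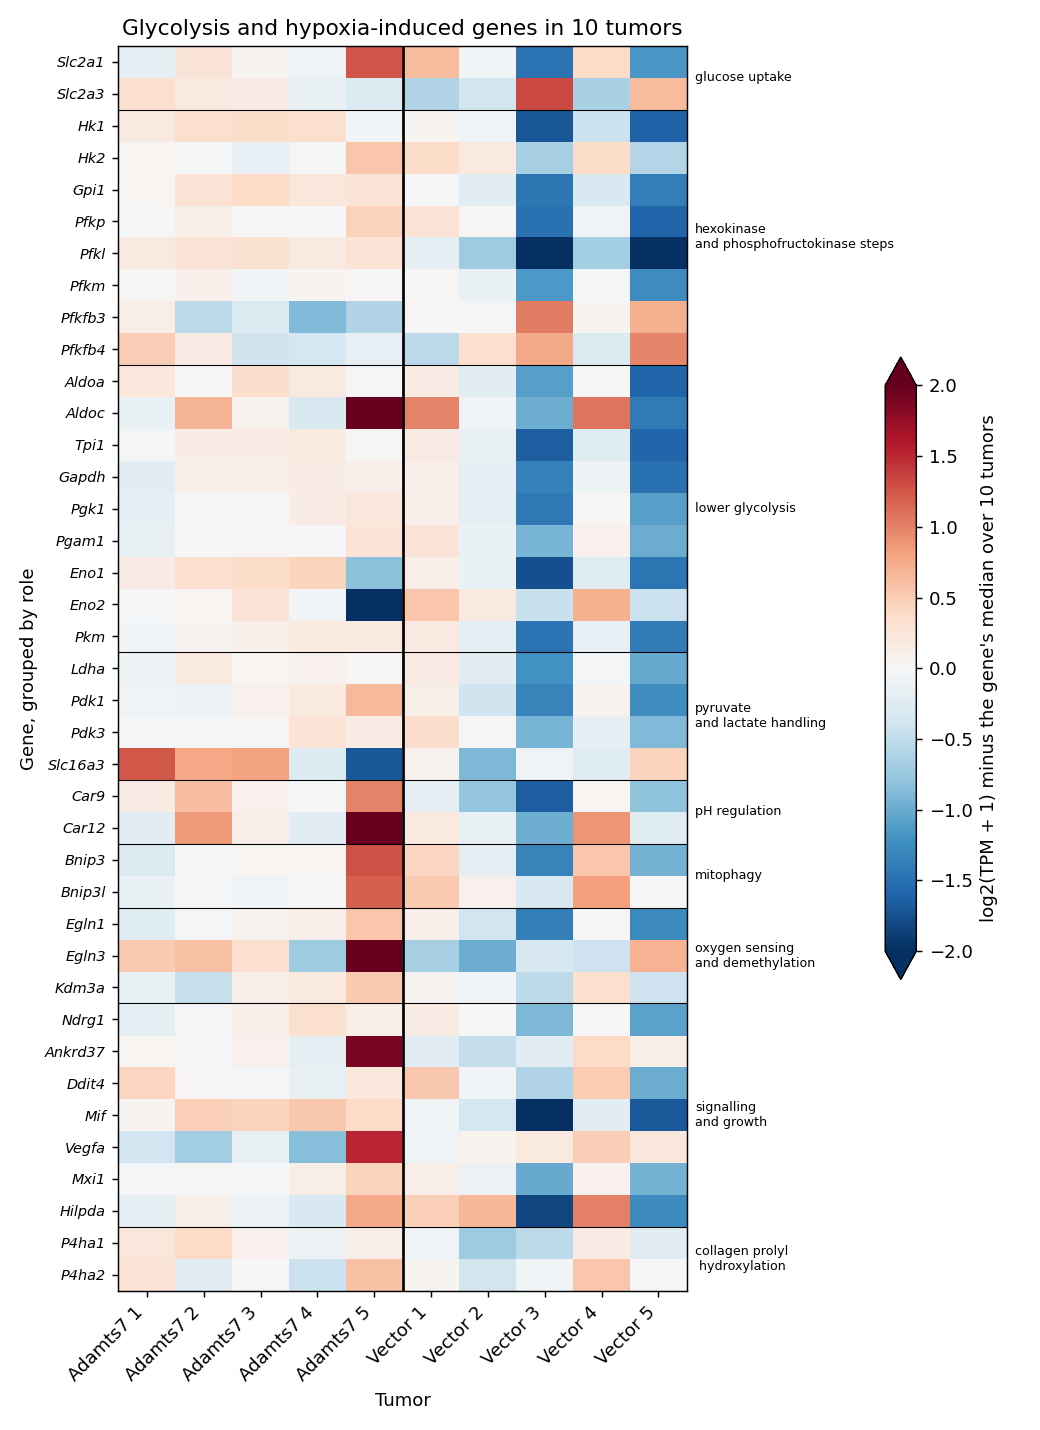
Heat map of the 39 genes (rows, grouped by role) in the 10 tumors (columns); color gives log2(TPM + 1) minus the gene's median over all tumors, and colors saturate at the ends of the scale. Most enzymes of the pathway are blue in vector tumors 3 and 5, which hold the lowest value of 29 genes, while the tumor labelled Adamts7 5 holds the highest value of 18.

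No gene of the set passed the test between the groups. Of the 15276 genes tested, limma called 0.0262% higher and 0.196% lower in Adamts7 tumors at an adjusted p under 0.05, and it called 0 of the 39 in either direction. The smallest adjusted p in the set was 0.113, for Pfkl. At an unadjusted p under 0.05 limma gave 12 of the 39, of which 11 were higher and 1 was lower in Adamts7 tumors, against 4.86% and 15.3% of all tested genes. Log2 fold changes, Adamts7 minus vector, were positive for 33 of the 39 genes with a median of 0.51, whereas 39.8% of all tested genes were positive with a median of -0.10. Quantile normalization moved the median of all genes to 0.04 and median-of-ratios scaling to 0.01; the medians of the 39 genes were then 0.53 and 0.63, with 35 positive under each, against 54.4% and 51.0% of all tested genes. Without vector tumors 3 and 5, 26 of the 39 genes were positive with a median of 0.08, and 22 were positive with a median of 0.06 once the tumor labelled Adamts7 5 was dropped too; of all tested genes 35.7% and 39.2% were then positive, with medians of -0.10 and -0.08. In the first of these fits limma called 0 of the 39, against 0.0202% of genes higher and 0.202% lower. The authors' deposited table gives 4 of the 39 genes as higher and 0 as lower at an adjusted p under 0.05, namely Pfkl (0.0176), Car9 (0.0259), Mif (0.0351) and Gpi1 (0.0365), against 2.48% and 5.48% of the genes with an adjusted p in that table.

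**Figure D2:**
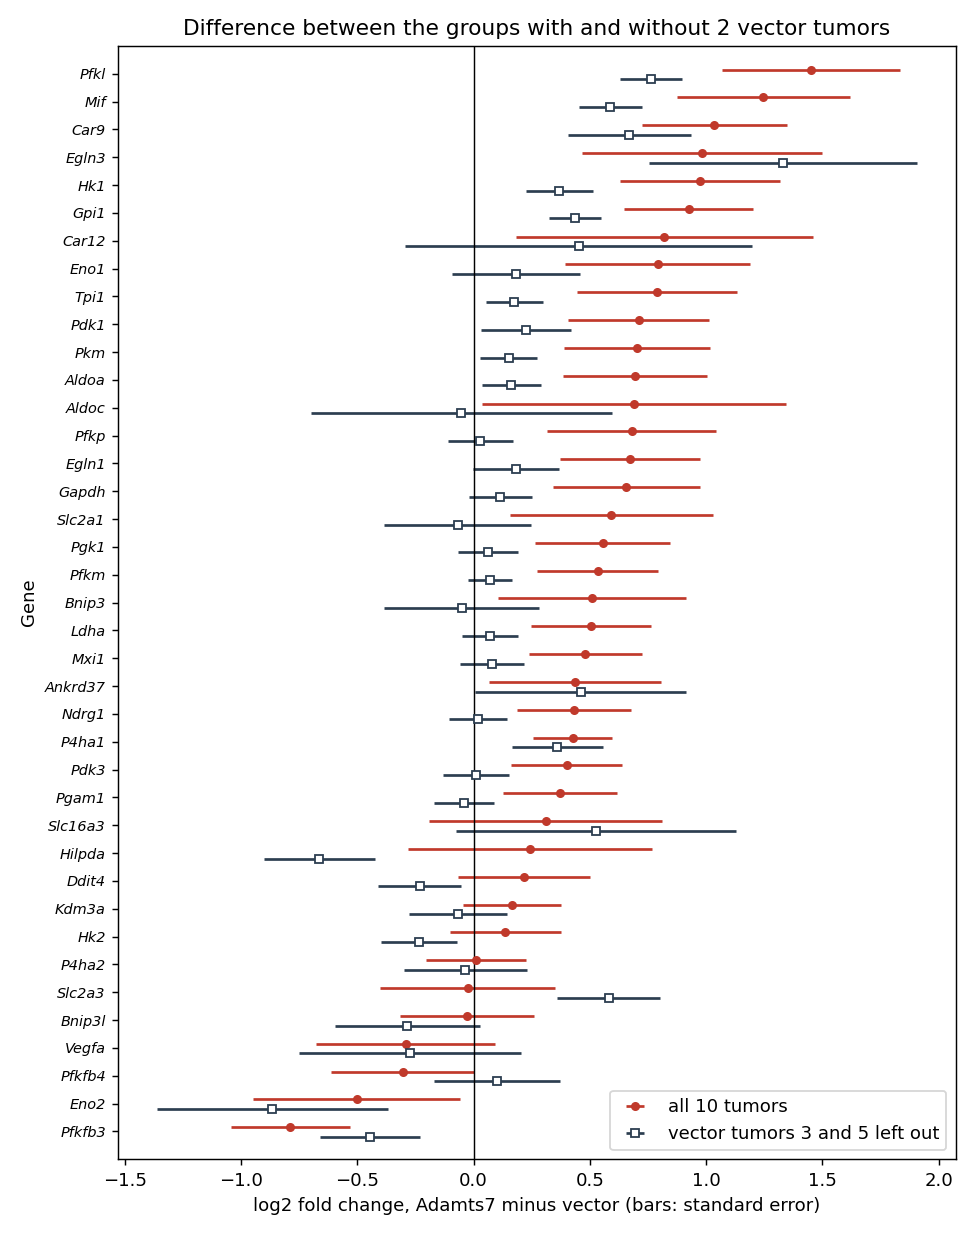
Log2 fold change on the log2(TPM + 1) scale, Adamts7 minus vector, for each of the 39 genes (rows), with bars for the standard error of the limma fit; filled circles use all 10 tumors and open squares leave out vector tumors 3 and 5. The median of the 39 values lies at 0.51 with all tumors and at 0.08 without these vector tumors.

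Markers of other cells moved with the low tumors. The T cell markers Cd3d, Cd3e, Cd3g, Cd2, Cd8a and Cd4 were all above 0 in every tumor and summed to between 11.9 and 31.0 TPM in the Adamts7 tumors and to between 30.8 and 279 TPM in the vector tumors. Macrophage markers (Adgre1, Csf1r, Cd68, C1qa, C1qb, C1qc and Mrc1) also were above 0 in every tumor, with sums of 406 to 1954 TPM in the Adamts7 tumors and 774 to 3116 TPM in the vector tumors. On the mean log2(TPM + 1) scale vector tumors 3 and 5 were highest in both lists, at 5.33 and 5.05 for T cells and at 8.01 and 7.82 for macrophages, and lowest in the melanocyte list, at 3.37 and 7.32. Cd68 was an exception among the macrophage markers, at 162 and 158 TPM there, 72.3 TPM in the tumor labelled Adamts7 5 and 218 to 462 TPM in the other 7. Lowest in the T cell and macrophage lists was the tumor labelled Adamts7 5, at 1.49 and 5.28. The part of cell composition in the differences was not tested. In bulk tumors fewer cells of a type and less RNA per cell cannot be told apart.

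**Figure D3:**
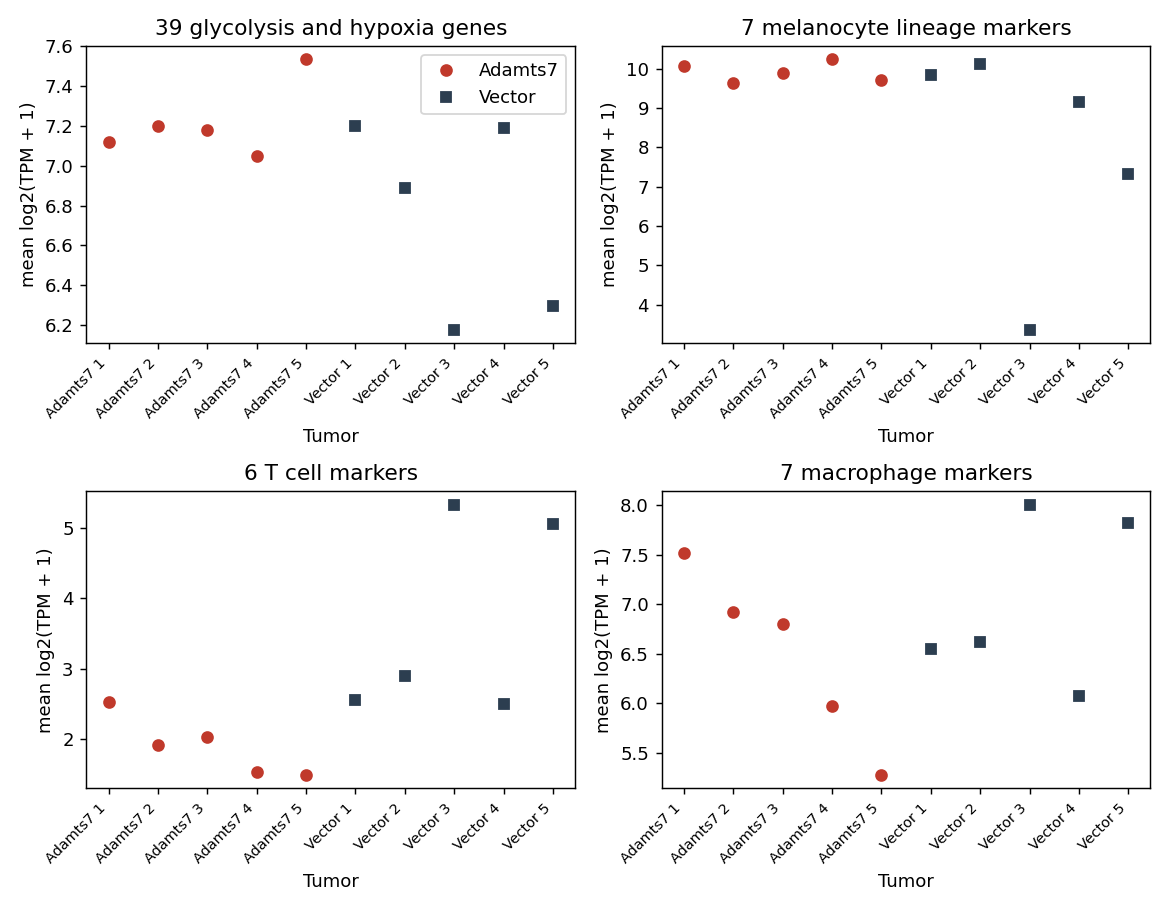
Mean log2(TPM + 1) of the 39 genes and of 3 marker lists (panels, each with its own vertical scale) in each tumor (points). Vector tumors 3 and 5 are lowest for the 39 genes and the melanocyte markers and highest for the T cell and macrophage markers.

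Glucose enters cells through the transporters encoded by Slc2a1 and Slc2a3, which behaved unlike each other. Slc2a1, the widely expressed transporter induced by low oxygen, measured 107, 146, 125, 114 and 291 TPM across Adamts7 tumors 1 to 5, against 189, 117, 42.8, 161 and 53.4 TPM across vector tumors 1 to 5. Vector tumors 3 and 5 were lowest and the tumor labelled Adamts7 5 highest, with the others mixed (log2 fold change 0.59, SE 0.44, limma adjusted p = 0.437). The value turned to -0.07 without vector tumors 3 and 5 and to -0.32 once the tumor labelled Adamts7 5 was dropped too. Slc2a3, a high-affinity transporter of neurons and leukocytes, was the least abundant of the 39 genes, with a mean of 2.44 TPM. It was at 6.60 and 3.70 TPM for vector tumors 3 and 5, at 0.940 to 1.35 TPM in the other vector tumors and at 1.51 to 2.77 TPM in the Adamts7 tumors. Its log2 fold change was -0.03 with all tumors (limma adjusted p = 0.976), turned to 0.05 and 0.21 under median-of-ratios scaling and quantile normalization, and was 0.58 without vector tumors 3 and 5.

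The early steps of the pathway held 2 of the 3 genes whose groups did not overlap. Gpi1, which converts glucose phosphate to fructose phosphate, measured 1236, 1456, 1574, 1396 and 1451 TPM across Adamts7 tumors 1 to 5, against 1160.1, 1025, 439, 969.9 and 459.8 TPM across vector tumors 1 to 5. Every Adamts7 tumor was above every vector tumor, though Adamts7 tumor 1 and vector tumor 1 lay close together. The group means were 1423 ± 123 and 811 ± 337 TPM (SD, n = 5 each), and the log2 fold change was 0.92 with an SE of 0.28 (limma adjusted p = 0.138), or 0.44 without vector tumors 3 and 5.

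Pfkl, the liver-type subunit of phosphofructokinase, the enzyme of the committed step, had the largest log2 fold change of the 39 genes. It measured 420.5, 447, 459.5, 424 and 452 TPM across Adamts7 tumors 1 to 5, against 330.4, 226, 75.3, 233 and 80.2 TPM across vector tumors 1 to 5. The Adamts7 tumors lay within a narrow band above all vector tumors, and the band included the tumor labelled Adamts7 5. Group means were 441 ± 17.5 and 189 ± 109.6 TPM (SD, n = 5 each), with a log2 fold change of 1.45 and an SE of 0.38 (limma adjusted p = 0.113). Without vector tumors 3 and 5 the log2 fold change was 0.76 (limma adjusted p = 0.0646). When the tumor labelled Adamts7 5 was dropped too it was 0.75 and passed (limma adjusted p = 0.0240), where 1.51% of all tested genes were called higher, and it passed as well with tumor weights (log2 fold change 0.96, limma adjusted p = 0.0334), where 1.72% were called higher and 6.26% lower.

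The 3 phosphofructokinase subunits differed from each other. Pfkp, the platelet-type subunit, was at 338 to 477 TPM in the Adamts7 tumors and at 113 to 417 TPM in the vector tumors, with a log2 fold change of 0.68 that was 0.03 without vector tumors 3 and 5. The muscle-type subunit Pfkm was at 59.6 to 66.2 TPM in the Adamts7 tumors, at 56.1 to 63.3 TPM for vector tumors 1, 2 and 4, and at 27.5 and 25.4 TPM for vector tumors 3 and 5. Its log2 fold changes were 0.53 with all tumors and 0.07 without these 2. Only Pfkl of the 3 was below every Adamts7 tumor in each of vector tumors 1, 2 and 4. Pfkp was below every Adamts7 tumor in vector tumor 4, at 331 TPM, and Pfkm in vector tumor 2, at 56.1 TPM. The differences between subunits were not tested.

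Hexokinases, which trap glucose in the cell as a phosphate, also differed by isoform. Hk1, the constitutive form bound to mitochondria, measured 452, 502, 514, 503 and 384 TPM across Adamts7 tumors 1 to 5, against 418, 382, 122, 299 and 131 TPM across vector tumors 1 to 5. Between vector tumors 1 and 2 lay the tumor labelled Adamts7 5, so the groups overlapped (log2 fold change 0.97, SE 0.34, limma adjusted p = 0.176). That value was 0.37 without vector tumors 3 and 5. Hk2, the inducible form, was less abundant on this length-scaled measure, at 38.5 to 63.4 TPM in the Adamts7 tumors and 26.9 to 56.0 TPM in the vector tumors, with a log2 fold change of 0.14 that turned to -0.23 without vector tumors 3 and 5.

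Pfkfb3 and Pfkfb4 encode the bifunctional enzymes that make and remove the small activator of phosphofructokinase, and both were highest in vector tumors 3 and 5. Pfkfb3, the form with the higher kinase activity, measured 15.5, 9.49, 11.6, 7.22 and 8.95 TPM across Adamts7 tumors 1 to 5, against 14.3, 13.9, 30.2, 14.6 and 23.6 TPM across vector tumors 1 to 5. Vector tumors 3 and 5 were highest and Adamts7 tumor 1 lay above vector tumors 1, 2 and 4. The log2 fold change was -0.79 with an SE of 0.26 (limma adjusted p = 0.154), and -0.44 without vector tumors 3 and 5. Pfkfb4 was likewise highest in vector tumors 3 and 5, at 11.2 and 13.3 TPM against 4.08 to 9.27 TPM in the other 8, and its log2 fold change of -0.30 turned to 0.10 without them.

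**Figure D4:**
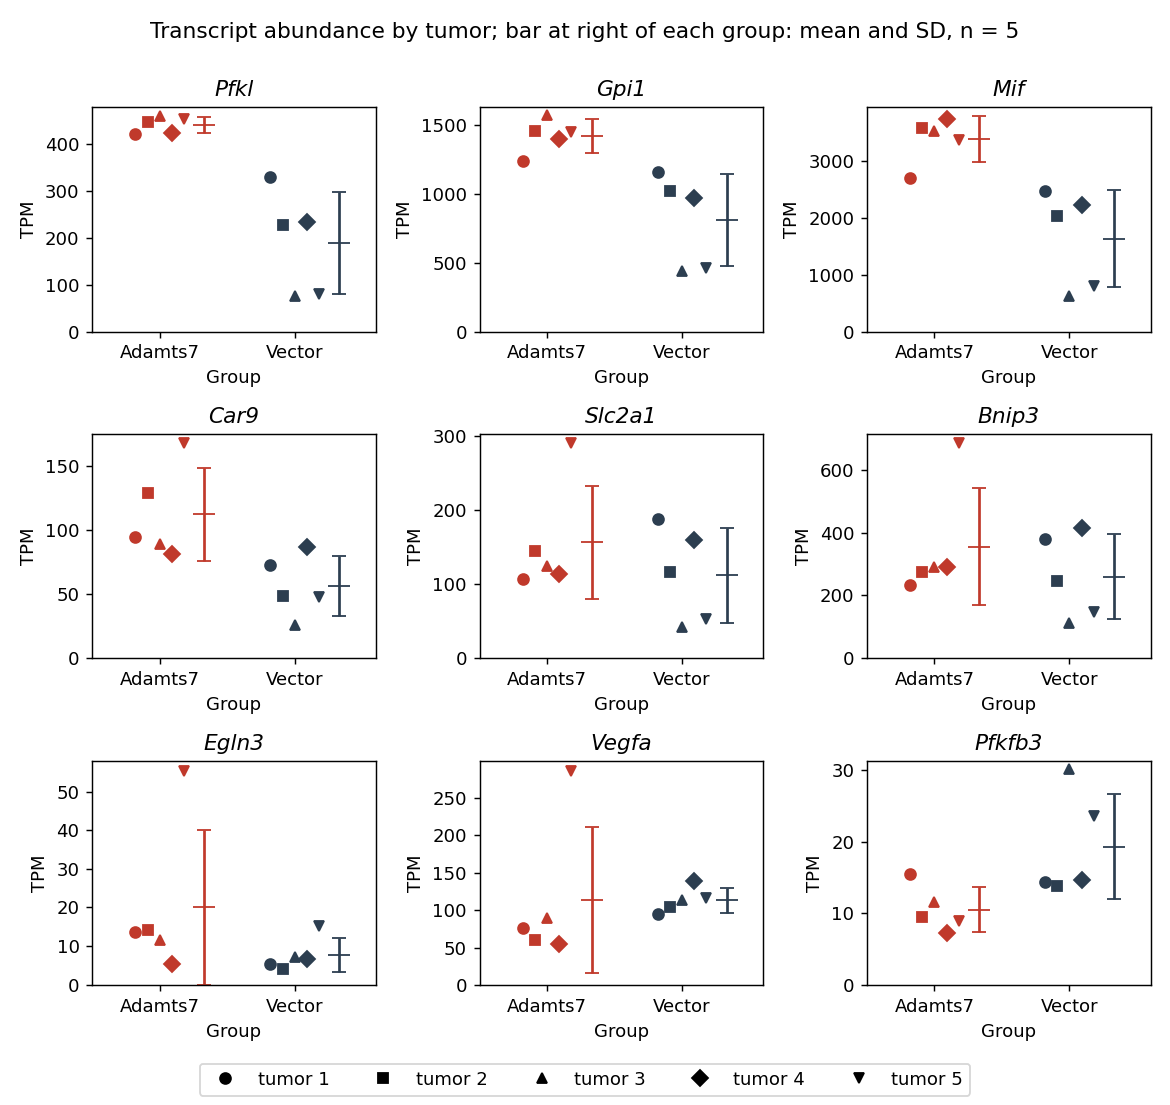
TPM (vertical axis, linear from 0 or just below) of 9 genes in each tumor, by group, with symbols for the tumor number and, to the right of each group, the mean and SD (n = 5). Pfkl, Gpi1 and Mif separate the groups, the tumor labelled Adamts7 5 lies above all others for Car9, Slc2a1, Bnip3, Egln3 and Vegfa, and Pfkfb3 is highest in vector tumors 3 and 5.

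The enzymes of the lower pathway, which run from fructose bisphosphate to pyruvate, included the 3 most abundant genes of the set, Gapdh, Pkm and Eno1, and also scarcer forms such as Aldoc. Gapdh, the dehydrogenase step and a common reference gene, measured 6608, 8404, 8424, 8611 and 8367 TPM across Adamts7 tumors 1 to 5, against 8357, 6781, 3052, 7225 and 2767 TPM across vector tumors 1 to 5. Vector tumors 1, 2 and 4 lay within the Adamts7 range and vector tumors 3 and 5 far below it, so Gapdh was not level across these tumors (log2 fold change 0.66, SE 0.32, limma adjusted p = 0.271). Without vector tumors 3 and 5 its log2 fold change was 0.12.

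Pkm, the pyruvate kinase expressed outside liver and red cells, measured 2692, 2930.5, 3016, 3207 and 3166 TPM across Adamts7 tumors 1 to 5, against 3178, 2478, 1007, 2493 and 1067 TPM across vector tumors 1 to 5. Tpi1, the triose phosphate isomerase, measured 2406, 2715, 2712, 2805 and 2509 TPM across Adamts7 tumors 1 to 5, against 2743, 2216, 784, 2066 and 819.6 TPM across vector tumors 1 to 5. In both, vector tumor 1 lay within the Adamts7 range, vector tumors 2 and 4 somewhat below it and vector tumors 3 and 5 far below. Their log2 fold changes were 0.70 (SE 0.31) and 0.79 (SE 0.34), with limma adjusted p-values of 0.243 and 0.236, and 0.15 and 0.18 without vector tumors 3 and 5. The kinase gene Pgk1, the mutase gene Pgam1 and the aldolase gene Aldoa had log2 fold changes of 0.56, 0.37 and 0.69, which were 0.06, -0.04 and 0.16 in that fit. These enzymes have processed pseudogenes, and the reads were divided between similar sequences by estimate, so their exact levels are uncertain.

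Enolase genes broke the pattern in the tumor labelled Adamts7 5. Eno1, the ubiquitous form, measured 3105, 3465, 3583, 3762 and 1565 TPM across Adamts7 tumors 1 to 5, against 3046, 2520.4, 817, 2313 and 1007 TPM across vector tumors 1 to 5. Its level in the tumor labelled Adamts7 5 was below that of vector tumors 1, 2 and 4 (log2 fold change 0.79, SE 0.40, limma adjusted p = 0.286), while Gapdh, Pgk1 and Pkm in the same tumor lay with the other Adamts7 tumors. Without vector tumors 3 and 5 the log2 fold change of Eno1 was 0.18. Eno2, the neuronal form, measured 57.0, 60.5, 71.0, 56.5 and 12.4 TPM across Adamts7 tumors 1 to 5, against 86.4, 66.5, 43.1, 96.4 and 43.6 TPM across vector tumors 1 to 5, so that the tumor labelled Adamts7 5 was lowest of all 10. Its log2 fold change was -0.50 with an SE of 0.44 (limma adjusted p = 0.516), and -0.06 without the tumor labelled Adamts7 5. Of enolase genes outside the set, named after their values were seen, Eno3, the muscle form, was at 35.8 TPM in that tumor and at 119.8 to 158 TPM in Adamts7 tumors 1 to 4. Eno1b, a near copy of Eno1 that can share its reads, was at 27.6 TPM there and at 39.3 to 60.0 TPM in the other Adamts7 tumors. Summed over these 4 genes, enolase stood at 1641 TPM in the tumor labelled Adamts7 5 against 3349 to 4008 TPM in Adamts7 tumors 1 to 4. The sum was lower still in vector tumors 3 and 5, at 917 and 1104 TPM. It was 3326, 2760 and 2607 TPM in vector tumors 1, 2 and 4. In vector tumors 3 and 5 Eno3 was at 46.6 and 38.75 TPM, and Eno1b was at 10.7 and 14.5 TPM.

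Aldoc, the brain-type aldolase, was high in that tumor. It measured 18.9, 33.6, 21.8, 16.5 and 144 TPM across Adamts7 tumors 1 to 5, against 42.1, 19.6, 10.1, 44.7 and 7.16 TPM across vector tumors 1 to 5. Apart from the tumor labelled Adamts7 5, vector tumors 1 and 4 were highest (log2 fold change 0.69, SE 0.65, limma adjusted p = 0.545), and the log2 fold change was 0.15 without that tumor and -0.05 without vector tumors 3 and 5.

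At the pyruvate branch, Ldha, which makes lactate, was at 2147 to 2661 TPM in the Adamts7 tumors, with 2598, 1993 and 2284 TPM for vector tumors 1, 2 and 4 and 1005 and 1143 TPM for vector tumors 3 and 5. Its log2 fold change of 0.51 (SE 0.26, limma adjusted p = 0.292) was 0.07 without vector tumors 3 and 5. Pdk1, a kinase that shuts the pyruvate dehydrogenase complex, measured 72.5, 71.2, 81.3, 87.9 and 119.8 TPM across Adamts7 tumors 1 to 5. Across vector tumors 1 to 5 it measured 82.5, 57.7, 29.7, 80.3 and 31.7 TPM. Vector tumors 3 and 5 were lowest and the tumor labelled Adamts7 5 highest (log2 fold change 0.71, SE 0.30, limma adjusted p = 0.228), with 0.22 without vector tumors 3 and 5. Pdk3, a related kinase, was at 36.4 to 45.5 TPM in the Adamts7 tumors. It was at 33.1 to 48.3 TPM for vector tumors 1, 2 and 4 and at 19.2 and 19.9 TPM for vector tumors 3 and 5.

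Slc16a3, the exporter of lactate from glycolytic cells and from activated macrophages, did not follow the other genes of the pathway. It measured 69.1, 49.3, 50.7, 23.3 and 8.15 TPM across Adamts7 tumors 1 to 5, against 30.1, 14.9, 27.1, 23.9 and 39.2 TPM across vector tumors 1 to 5. Adamts7 tumors 1 to 3 were the highest, and the tumor labelled Adamts7 5 was the lowest of all 10 (log2 fold change 0.31, SE 0.50, limma adjusted p = 0.737). Leaving out the tumor labelled Adamts7 5 gave 0.77. Macrophage marker means on the log2(TPM + 1) scale ran 7.52, 6.92, 6.81, 5.97 and 5.28 over Adamts7 tumors 1 to 5 and 6.55, 6.62, 8.01, 6.08 and 7.82 over vector tumors 1 to 5. The part of macrophages in the Slc16a3 values was not tested.

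The carbonic anhydrases of the cell surface, which buffer the acid that glycolysis produces, were highest in the tumor labelled Adamts7 5. Car9, a standard marker of hypoxic tumor tissue, measured 94.3, 129, 89.1, 81.4 and 168 TPM across Adamts7 tumors 1 to 5, against 73.1, 48.9, 26.2, 86.6 and 47.8 TPM across vector tumors 1 to 5. Vector tumor 4 alone reached above an Adamts7 tumor, tumor 4. The log2 fold change was 1.04 with an SE of 0.31 (limma adjusted p = 0.136), 0.88 without the tumor labelled Adamts7 5 and 0.67 without vector tumors 3 and 5. Car12 measured 1.79, 4.83, 2.56, 1.80 and 30.4 TPM across Adamts7 tumors 1 to 5, against 2.73, 1.95, 0.650, 4.96 and 1.74 TPM across vector tumors 1 to 5. Outside the tumor labelled Adamts7 5 the highest value was 4.96 TPM and the groups were mixed (log2 fold change 0.82, SE 0.64, limma adjusted p = 0.462), with 0.19 without that tumor.

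Of the oxygen sensors, Egln3, a hydroxylase strongly induced by the factor it restrains, measured 13.6, 14.2, 11.6, 5.20 and 55.4 TPM across Adamts7 tumors 1 to 5, against 5.41, 4.07, 7.09, 6.59 and 15.3 TPM across vector tumors 1 to 5. Vector tumor 5 was the highest of its group and exceeded Adamts7 tumors 1 to 4 (log2 fold change 0.98, SE 0.52, limma adjusted p = 0.303). The log2 fold change was 0.52 without the tumor labelled Adamts7 5. Egln1, the main oxygen sensor of most tissues, was at 96.5 to 168 TPM in the Adamts7 tumors and, apart from 43.6 and 46.7 TPM for vector tumors 3 and 5, at 87.0 to 122 TPM in the vector tumors. Kdm3a, an oxygen-dependent histone demethylase, was at 49.7 to 99.2 and 47.4 to 87.0 TPM with a log2 fold change of 0.17 that turned to -0.07 without vector tumors 3 and 5.

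Bnip3 and Bnip3l, receptors that direct damaged mitochondria to autophagy, shared a single high tumor. Bnip3 measured 233, 275, 292, 291 and 686 TPM across Adamts7 tumors 1 to 5, against 379.7, 247, 111, 415 and 147 TPM across vector tumors 1 to 5. Bnip3l measured 83.2, 89.5, 86.6, 92.4 and 212 TPM across Adamts7 tumors 1 to 5, against 132, 97.5, 73.7, 162 and 90.4 TPM across vector tumors 1 to 5. In both genes the tumor labelled Adamts7 5 was highest and vector tumors 4 and 1 came next, above Adamts7 tumors 1 to 4. The log2 fold changes were 0.51 (SE 0.41) and -0.03 (SE 0.29), with limma adjusted p-values of 0.474 and 0.965, and 0.24 and -0.28 without the tumor labelled Adamts7 5. Bnip3 turned to -0.05 without vector tumors 3 and 5, and Bnip3l to 0.09 under median-of-ratios scaling and to 0.01 under quantile normalization.

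Among the secreted products, Mif, a cytokine that holds macrophages in place and is also abundant in melanoma cells, was the third gene without overlap. It measured 2696, 3579.8, 3534, 3749 and 3373 TPM across Adamts7 tumors 1 to 5, against 2479.7, 2027, 633, 2229.6 and 808 TPM across vector tumors 1 to 5. All Adamts7 tumors were above all vector tumors, with Adamts7 tumor 1 and vector tumor 1 nearest. The means were 3386 ± 409 and 1636 ± 853 TPM (SD, n = 5 each), and the log2 fold change was 1.25 with an SE of 0.37 (limma adjusted p = 0.136). It was 0.59 without vector tumors 3 and 5 (limma adjusted p = 0.128) and 0.59 once the tumor labelled Adamts7 5 was dropped too, where it passed (limma adjusted p = 0.0433). Over all tested genes, 1.11% separated the groups with the Adamts7 tumors higher and 3.78% with them lower; 4.89% did so in either direction, and in the set the counts were 3 and 0 of 39.

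Vegfa, the main growth factor for blood vessels, differed in direction with 1 tumor. It measured 75.7, 60.7, 89.4, 54.5 and 286 TPM across Adamts7 tumors 1 to 5, against 94.4, 104, 114, 139 and 116 TPM across vector tumors 1 to 5. Adamts7 tumors 1 to 4 all lay below all vector tumors, and the tumor labelled Adamts7 5 lay far above all others. The group means were 113 ± 97.5 and 113 ± 16.7 TPM (SD, n = 5 each), with a log2 fold change of -0.29 and an SE of 0.38 (limma adjusted p = 0.672). Leaving out the tumor labelled Adamts7 5 gave a log2 fold change of -0.70, which passed (limma adjusted p = 0.0480), where 3.18% of all tested genes were called lower. The authors' deposited table gives Vegfa a log2 fold change of 0.14 and no adjusted p. Endothelial markers (Pecam1, Cdh5, Kdr, Tek, Emcn and Cldn5) summed to 42.5 TPM in the tumor labelled Adamts7 5, to 46.1 to 89.1 TPM in Adamts7 tumors 1 to 4 and to 54.0 to 95.5 TPM in the vector tumors.

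The remaining stress genes were mostly lowest in vector tumors 3 and 5. Hilpda, which protects lipid droplets from breakdown in hypoxic cells, measured 61.3, 76.4, 65.0, 57.1 and 119.7 TPM across Adamts7 tumors 1 to 5, against 98.5, 112, 19.2, 142 and 28.5 TPM across vector tumors 1 to 5. Vector tumors 1, 2 and 4 lay above Adamts7 tumors 1 to 4, and vector tumors 3 and 5 lay below all others. Its log2 fold change of 0.24 (limma adjusted p = 0.806) turned to -0.66 without vector tumors 3 and 5, and to -0.84 once the tumor labelled Adamts7 5 was dropped too, where it passed (limma adjusted p = 0.0234) along with 4.62% of all tested genes called lower. Ankrd37, an ankyrin repeat gene induced by low oxygen, was at 16.6 to 20.2 TPM in Adamts7 tumors 1 to 4, at 73.2 TPM in the tumor labelled Adamts7 5 and at 13.3 to 25.4 TPM in the vector tumors. Its log2 fold change of 0.44 was 0.05 without the tumor labelled Adamts7 5. Ddit4, a brake on the growth kinase mTOR, was at 112 to 168 TPM in the Adamts7 tumors. It was at 119.64 to 182 TPM for vector tumors 1, 2 and 4 and at 81.95 and 62.1 TPM for vector tumors 3 and 5. Mxi1, an antagonist of Myc, and Ndrg1, a stress-induced differentiation gene, had log2 fold changes of 0.48 and 0.43, or 0.08 and 0.02 without vector tumors 3 and 5.

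The collagen prolyl hydroxylase subunits, which need oxygen to stabilise collagen, were less tied to vector tumors 3 and 5. P4ha1 measured 168, 190.2, 153, 133 and 158 TPM across Adamts7 tumors 1 to 5, against 135, 87.4, 99.5, 161 and 122 TPM across vector tumors 1 to 5. Vector tumor 2 was lowest, and vector tumors 1 and 4 reached into the Adamts7 range. Its log2 fold change was 0.43 with an SE of 0.17 (limma adjusted p = 0.209) and 0.36 without vector tumors 3 and 5. P4ha2 was at 38.7 to 79.2 TPM in the Adamts7 tumors and 40.3 to 78.0 TPM in the vector tumors, with a log2 fold change of 0.01 that turned to -0.03 without vector tumors 3 and 5.

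Genes of the same pathways outside the set showed no call either, and their medians lay closer to that of all genes, -0.10. Of all tested genes, limma gave 20.2% an unadjusted p under 0.05 in either direction. Among 27 other hypoxia-induced genes tested, 15 were positive with a median log2 fold change of 0.06. Limma called 0 of these 27 in either direction, and 2 had an unadjusted p under 0.05. Those with the smallest p were the mitochondrial adenylate kinase gene Ak4, at 34.2 ± 6.71 against 19.5 ± 10.2 TPM, and the histone demethylase gene Kdm4b, at 40.6 ± 4.03 against 27.3 ± 10.1 TPM (SD, n = 5 each; limma adjusted p = 0.186 and 0.193). Ak4 was lowest in vector tumors 3 and 5, at 8.04 and 10.5 TPM, as was Kdm4b, at 16.2 and 17.0 TPM. Of 12 other glycolysis genes 6 were positive with a median of 0.12, 0 were called and 2 had an unadjusted p under 0.05. Ldhb, the lactate dehydrogenase subunit that favours pyruvate, was at 224 to 369 TPM in the Adamts7 tumors and at 126 to 219 TPM in the vector tumors without overlap (log2 fold change 0.80, SE 0.18, limma adjusted p = 0.0932). Hk3, a hexokinase of myeloid cells, was at 47.6 and 39.6 TPM for vector tumors 3 and 5 and at most 10.8 TPM elsewhere (log2 fold change -1.41, SE 0.55, limma adjusted p = 0.204).

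For the genes of the factor itself, of 8 tested subunits and regulators, 3 were positive with a median of -0.02 and 0 were called. Against 20.2% of all tested genes, 1 of the 8 had an unadjusted p under 0.05 in limma. That was Epas1, a second oxygen-regulated subunit found in endothelial cells and macrophages among others, at 8.26 ± 1.85 against 15.2 ± 4.21 TPM (SD, n = 5 each; log2 fold change -0.79, SE 0.21, limma adjusted p = 0.113). Arnt2, a partner subunit found mainly in neural cells, was at 30.6 ± 13.3 against 14.4 ± 8.29 TPM (SD, n = 5 each; log2 fold change 1.11, SE 0.53, limma adjusted p = 0.268), with 8.67 TPM in the tumor labelled Adamts7 5 and 3.44 and 7.65 TPM for vector tumors 3 and 5. Hif1a, the main oxygen-regulated subunit, whose protein rather than RNA is controlled by oxygen, was named here after its values were seen. It was at 145 TPM in the tumor labelled Adamts7 5, at 70.2 to 86.9 TPM in Adamts7 tumors 1 to 4 and at 70.2 to 112 TPM in the vector tumors, with a log2 fold change of -0.01 (limma adjusted p = 0.980).

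Pyruvate entry and lactate transport (14 tested genes, 8 positive), the pentose phosphate pathway (7 tested, 4 positive) and the tricarboxylic acid cycle (16 tested, 11 positive) had median log2 fold changes of 0.03, 0.01 and 0.22. Limma called 0 genes of these 3 lists, and 3, 2 and 4 had an unadjusted p under 0.05, against 20.2% of all tested genes. Bsg, the chaperone that brings lactate transporters to the cell surface, was at 2605 ± 299 against 1430.4 ± 716 TPM, and Dld, a shared subunit of the mitochondrial dehydrogenase complexes, was at 52.4 ± 8.43 against 71.4 ± 5.80 TPM (SD, n = 5 each; limma adjusted p = 0.161 and 0.124). Pdk2, a further kinase of the pyruvate dehydrogenase complex, was at 20.9 ± 4.87 against 12.2 ± 5.74 TPM (SD, n = 5 each; limma adjusted p = 0.157). In the pentose phosphate list, Pgls, the lactonase step, was at 154 to 179 TPM in the Adamts7 tumors and 107 to 151 TPM in the vector tumors without overlap (log2 fold change 0.42, SE 0.12, limma adjusted p = 0.126), and Rpe, an epimerase, had a log2 fold change of -0.51 (SE 0.17, limma adjusted p = 0.165). In the cycle, Idh3g, a subunit of isocitrate dehydrogenase, was at 124 to 142 TPM in the Adamts7 tumors and 92.1 to 123 TPM in the vector tumors, also without overlap though by a narrow margin (log2 fold change 0.30, SE 0.11, limma adjusted p = 0.181). Cs, the citrate synthase gene that opens the cycle, was at 309 ± 56.6 against 195 ± 74.4 TPM (SD, n = 5 each, limma adjusted p = 0.186). Bsg was lowest in vector tumors 3 and 5, at 641 and 697 TPM, as was Cs, at 119 and 121 TPM.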

How the data were processed

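Per the labels' protocols, poly(A) RNA with added spike-ins was made into libraries whose cDNA primers carried molecular identifiers, and paired reads of 150 bases were demultiplexed with bcl2fastq 2.17. The authors deposited log2(TPM + 1) values per gene symbol; the submitters' processing notes name RSEM, DESeq2 and build mm39, while the aligner, the annotation and the use of identifiers are not given in the sources used here. Returned to TPM, the values sum to 995286 to 998019 per tumor. TPM keeps no depth, so depth is unknown and no counting interval is given. The authors' deposited comparison table holds p-values, a log2 fold change and its error, a test score and a mean normalized signal for each gene; its fold changes were read as Adamts7 over vector, since Adamts7 itself is positive there (2.32).

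Groups were taken from the titles, and p-values set the difference between the groups against the spread between these tumors. Genes averaging 1 TPM or more were fitted in R 4.3.3 (limma 3.58.1) after adding a pseudocount of 1 and taking log2, with a trended prior variance, the group as only term and Benjamini-Hochberg adjustment over all 15276 genes at 0.05; fold changes are on that scale, which understates low genes. The fit was tested on simulated data. Tables and promoter matches were made with Python 3.11.15 and pandas 2.3.3. Members and lists were chosen with earlier results of these data known. All 39 members may be named; values in every tumor go to those whose groups do not overlap, the 12 with the largest absolute log2 fold change and the 3 most abundant, and to others that stood out, chosen after their values were seen; other lists give up to 4 genes with the smallest p. Alternatives were other pseudocounts, filters, scalings, variance models and weights, a replicate block and tumors left out. The deposited repertoire table was not used here.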

Additional observations from a re-analysis of the deposited data

Results flagged for a closer look

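In 13 of the 78 sets of 5 tumors (39 genes in each group), the highest or lowest tumor stood apart, meaning that its gap to the next tumor took most of the range of its group (Dixon's test at the 95% level); chance gives about 1 in 20, and genes that vary together are not separate results. The tumor labelled Adamts7 5 accounted for 11 of the 13. It was high for 10 genes: Slc2a1 (291 TPM), Hk2 (63.4 TPM), Pfkp (477 TPM), Aldoc (144 TPM), Car12 (30.4 TPM), Bnip3 (686 TPM), Bnip3l (212 TPM), Egln3 (55.4 TPM), Ankrd37 (73.2 TPM) and Vegfa (286 TPM). For Eno2 it was low, at 12.4 TPM. The other 2 were Gapdh, low in Adamts7 tumor 1 at 6608 TPM, and Egln3, high in vector tumor 5 at 15.3 TPM. The tumor labelled Adamts7 5 also had the lowest Adamts7 value of its group, 18.2 TPM; the part of that difference in these genes was not tested.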

How the results depend on the processing

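Over all genes, 4 were called higher and 30 lower. The 2 counts were 1 and 9 with no filter on low values, 263 and 956 with tumor weights, 0 and 0 with a replicate block, and 225 and 689 without vector tumors 3 and 5 and the tumor labelled Adamts7 5; leaving out 1 tumor at a time gave 0 to 170 and 5 to 487, with both upper values reached without the tumor labelled Adamts7 5. Genes called higher numbered 2 with a filter at 5 TPM, 8 under median-of-ratios scaling, 10 under quantile normalization and 8 without the variance trend. Of the 39 genes, 1 was called higher with tumor weights (Pfkl), and 2 higher (Pfkl and Mif) and 1 lower (Hilpda) without the 3 tumors; the count called lower was 0 to 1 with 1 tumor left out, the 1 being Vegfa without the tumor labelled Adamts7 5, and the count called higher was 0 in all 10 such fits. The median log2 fold change of the 39 was 0.33 to 0.67 with 1 tumor left out, 0.078 without vector tumors 3 and 5 and 0.064 without the 3 tumors.

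Signs turned for some genes. Slc2a3 was at 0.064 with a pseudocount of 0.1 TPM, 0.054 under median-of-ratios scaling and 0.21 under quantile normalization, and Bnip3l at 0.092 and 0.0078 under the last 2. With tumor weights the log2 fold changes were -0.10 for Slc2a1, 0.48 for Slc2a3, -0.25 for Hk2, -0.33 for Aldoc, -0.022 for Car12, -0.11 for Bnip3, -0.17 for P4ha2, -0.18 for Ddit4, -0.064 for Kdm3a and -0.60 for Hilpda. Without vector tumors 3 and 5 they were -0.069 for Slc2a1, 0.58 for Slc2a3, -0.23 for Hk2, 0.10 for Pfkfb4, -0.053 for Aldoc, -0.039 for Pgam1, -0.051 for Bnip3, -0.035 for P4ha2, -0.23 for Ddit4, -0.067 for Kdm3a and -0.66 for Hilpda. Without the 3 tumors they were -0.32 for Slc2a1, 0.66 for Slc2a3, -0.35 for Hk2, -0.060 for Pfkp, 0.13 for Pfkfb4, -0.59 for Aldoc, -0.10 for Pgam1, -0.0072 for Pdk3, -0.18 for Car12, -0.32 for Bnip3, -0.17 for P4ha2, -0.26 for Ddit4, -0.19 for Kdm3a, -0.0076 for Mxi1 and -0.84 for Hilpda. With 1 tumor left out the range was -0.28 to 0.12 for Bnip3l, -0.12 to 0.14 for P4ha2, -0.20 to 0.29 for Slc2a3, -0.011 to 0.25 for Hk2, -0.17 to 0.54 for Hilpda and -0.00064 to 0.38 for Ddit4. The cause was not tested. The titles number the tumors 1 to 5 in each group, and deviations of same-numbered tumors correlated at -0.28 to 0.26. These values cannot tell whether the numbers mark pairs, and the main fit used no pairing. In this balanced design the replicate block cannot move a log2 fold change, only its error; the block took the counts of called genes to 0 and 0.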

Other observations

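The genes here were chosen after their values were seen. Vector tumor 4 held transcripts of skeletal muscle: Ckm, Acta1, Myh4, Tnnt3 and Myh2 summed to 277 TPM there and to at most 2.26 TPM in any other tumor. Pgam2, the muscle form of phosphoglycerate mutase, was at 14.4 TPM in vector tumor 4 and at most 5.72 TPM elsewhere, while Pfkm, the muscle-type phosphofructokinase of the set, was at 61.0 TPM there, within the 59.6 to 66.2 TPM of the Adamts7 tumors and close to vector tumor 1 at 63.3 TPM. Slc2a4 is the glucose transporter of muscle and fat that responds to insulin. It was at 13.3 TPM in the tumor labelled Adamts7 5 and at most 2.34 TPM in the other 9 tumors. The muscle markers summed to 1.63 TPM in the tumor labelled Adamts7 5. The adipocyte markers Adipoq, Plin1, Fabp4 and Lep summed to 20.3 TPM there. Their sums were 10.6 to 17.0 TPM in Adamts7 tumors 1 to 4 and 11.1 to 171 TPM in the vector tumors. The source of the Slc2a4 transcripts was not tested.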
